A study of Eragrostis tef with 16 samples.

Results

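WRKY transcription factors of tef were followed in roots and shoots of plants grown in hydroponic solution with low or optimum calcium. Tef (Eragrostis tef) is an allotetraploid cereal with an A and a B subgenome. Members were taken by annotation alone: 26 of the 5824 genes with values carried a description containing the word WRKY. The deposited list is headed target gene ID and holds 5634 further IDs without values. How its genes were chosen is not given, and 5593 of the 5824 had reads in every library. All genes and gene reads below mean these 5824 only, and WRKY genes of tef outside the list are not covered. WRKY proteins are plant transcription factors that bind W-box elements in promoters through a zinc finger, and most of those studied in Arabidopsis and rice act in responses to pathogens, wounding, nutrient shortage or ageing. The family is divided by its domains into group I, the subgroups IIa to IIe and group III. Calcium signals can reach WRKY factors through MAP kinases, through VQ motif partner proteins and, for subgroup IId, through binding of calmodulin.

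The 4 groups were low-calcium root, optimum-calcium root, low-calcium shoot and optimum-calcium shoot, with 4 libraries each and 16 in all. The sources used here state no calcium concentration, plant age or cultivar. The labels do not say whether the 4 replicates of a group were separate plants, so p-values measure only the spread between these samples, which may be technical. Levels are deposited log2 values, that is log2 of scaled reads plus 1. Whether those reads come from mRNA or from small RNA is not stated. The library titles carry the tag mi before their number, and per-sample small RNA read lengths were deposited beside the gene values. Higher, lower, rose, fell and level therefore refer to reads on these genes, which may not be transcript levels. In megareads (Mreads), recovered gene reads per library ranged from 1.20 to 2.02 in low-calcium root, 2.32 to 3.44 in optimum-calcium root, 1.82 to 2.10 in low-calcium shoot and 2.63 to 2.85 in optimum-calcium shoot. Depth was therefore lower under low calcium in both tissues. The numbers in the library titles also place the low-calcium libraries before the optimum-calcium ones, so an effect of library order and of calcium cannot be told apart. Photosynthesis genes (10 genes) took 6.73% to 10.3% of gene reads over the 8 shoot libraries and 0.0358% to 0.0764% over the 8 root libraries, while 4 nicotianamine synthases, taken as root markers, took 0.0390% to 0.143% in shoot. In root the nicotianamine synthases took 0.268% to 1.91% under low calcium, against 0.944% to 2.91% under optimum calcium. By limma (adjusted p under 0.05) 2 of these 4 were higher in root under low calcium (28.4% of all genes). Under optimum calcium 4 were (32.9% of all genes). Of the 10 photosynthesis genes 9 were lower in root under low calcium (28.4% of all genes) and 10 under optimum calcium (33.7%). The photosynthesis genes took 0.0751% to 0.0760% in low-calcium root, against 0.0358% to 0.0764% in optimum-calcium root. The title of low-calcium shoot replicate 4 names both tissues, and its source name is shoot.

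The 26 members bore 17 names. Names of the form probable WRKY transcription factor, with a number, and the WRKY6 name follow the Arabidopsis numbering (18 members), and WRKY24, WRKY51 and WRKY76 written with the prefix repeated follow the rice numbering (8 members). WRKY51 occurs under both, so Et_9B_065443 (Arabidopsis numbering) and Et_7B_053299 (rice numbering) share a number and not an identity. The best hit of all 26 was a Setaria protein, with 78.5% to 93.0% identity (median 84.4%, the authors' deposited values). By the letter in their IDs 10 members belong to subgenome A and 16 to subgenome B, and 10 members form 5 pairs of A and B copies with the same name, best hit and chromosome number, namely WRKY76, WRKY48, WRKY17, WRKY3 and 1 pair of WRKY24 genes. Near-identical copies can share reads, so the division of reads between copies is uncertain. The members gathered between 3803 and 13389 reads per library in sum. No library was at 0 for 24 of them, and 6 had fewer than 10 reads in at least 1 library.

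**Figure D1:**
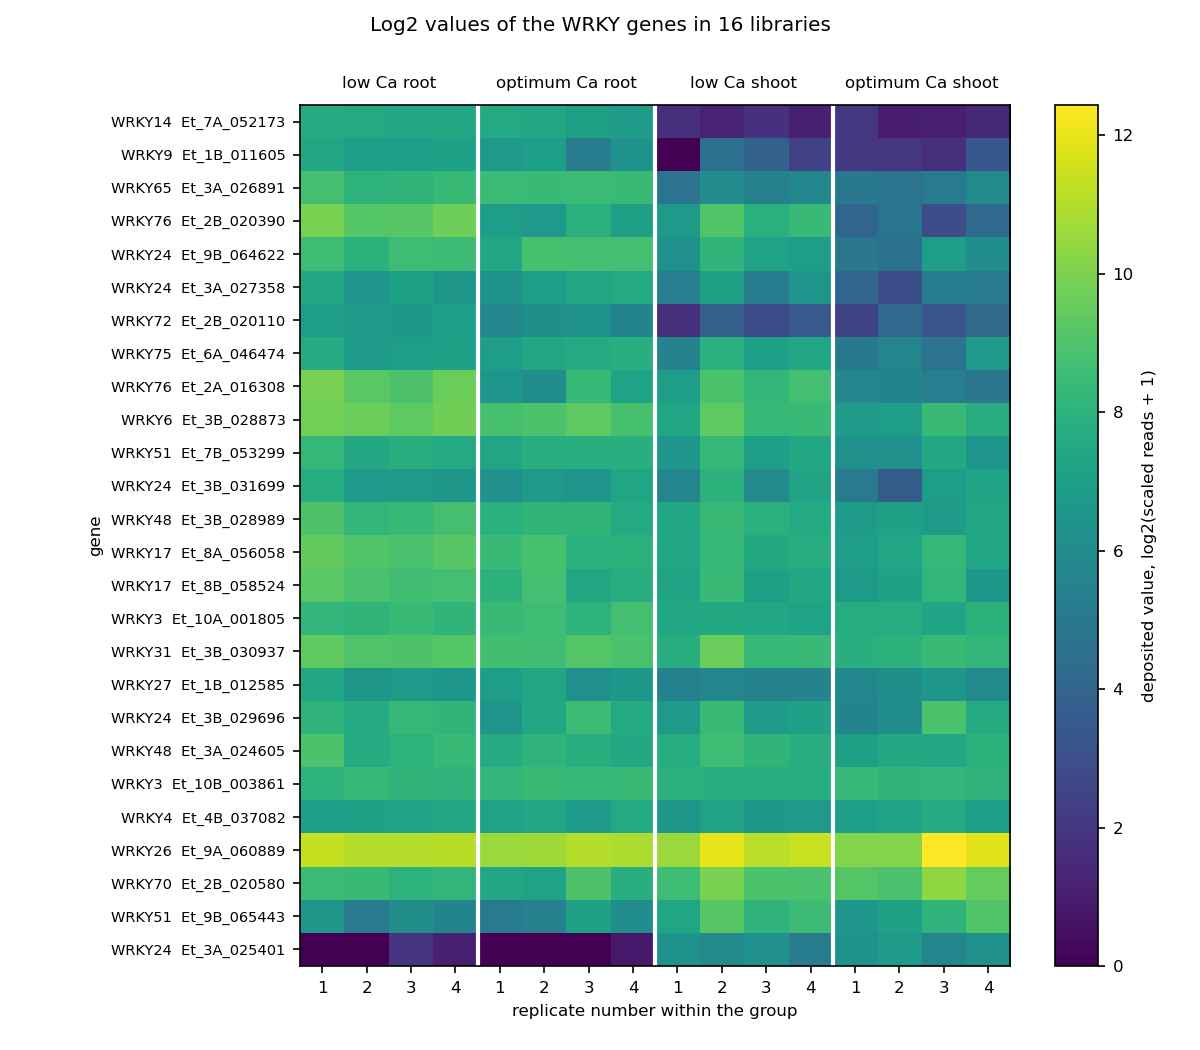
Level of each of the 26 WRKY genes in each of the 16 libraries, as the deposited value, log2(scaled reads + 1), on a colour scale from 0. Rows are genes ordered by their root minus shoot difference under optimum calcium, and columns are libraries ordered by group. Most rows are higher in the 8 root columns than in the 8 shoot columns, the WRKY76 rows are higher under low calcium in both tissues, and the shoot columns of a group differ among themselves.

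Under low calcium the pair of WRKY76 genes rose in root and in shoot, by 5.06-fold to 16.1-fold. In shoot 2 WRKY24 genes, WRKY75 and 1 copy of WRKY48 rose as well, and 1 copy of WRKY3 fell. Most of these added shoot calls depended on the fit, as given below. No member passed in the opposite direction in the other tissue. In root 2 of 26 members passed the limma test (adjusted over all 5824 genes, threshold 0.05) and 24 did not, against a background of 8.33% of all genes passing. Both were higher, where 5.32% of all genes were higher and 3.0% lower. This background moved with single libraries: it was 1.13% to 2.87% without low-calcium root replicate 1, 2 or 4 or optimum-calcium root replicate 1, 2 or 4, and 14% without optimum-calcium root replicate 3, while 2 members passed in each of these fits. The nicotianamine synthases had a median log2 change of -1.22 in root, where 0 of 4 passed by limma and by voom and 2 had an unadjusted limma p under 0.05. The photosynthesis genes had a median of 0.49 in root, where 0 of 10 passed by limma and 1 by voom. Of these 10 genes 4 had an unadjusted limma p under 0.05, where 28.3% of all genes did. Voom called 645 of all genes in root. The part of both marker lists in the root results was not tested. In shoot 7 of 26 members passed and 19 did not, against a background of 39.4%. Of these 6 were higher, with 18.5% of all genes higher, and 1 was lower, with 20.9% of all genes lower. With the shoot libraries fitted alone 1747 of all genes passed in place of 2292. In that fit these WRKY24 genes and WRKY75 did not pass (limma adjusted p 0.0519 to 0.0758). WRKY3 did not pass with scaling by the total (limma adjusted p 0.201). The other copies of WRKY48 and WRKY3 changed in the same direction in shoot without passing.

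The median log2 change of the 26 members was 0.33 in root, where that of all genes was -0.03, and 0.39 in shoot, where that of all genes was -0.12. In each tissue 19 members had a positive and 7 a negative log2 change. The scaling moved the shoot medians together: with median-ratio size factors they were 0.50 for the members and 0.00 for all genes, and with scaling by the total 0.57 and 0.07. Scaling by the total gave 9 higher and 0 lower calls among members in shoot, where 21.9% of all genes were higher and 8.17% lower, and median-ratio size factors gave 7 higher and 1 lower, where 20.8% of all genes were higher and 14.3% lower. The shoot median of the members also moved with single libraries. It was 0.09, with 16 positive and 10 negative changes, without low-calcium replicate 2, 0.24 without optimum-calcium replicate 1 and 0.59 without low-calcium replicate 1, while that of all genes was -0.13, -0.12 and -0.11 in these fits. In bulk tissue fewer cells of a type and less RNA per cell cannot be told apart.

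**Figure D2:**
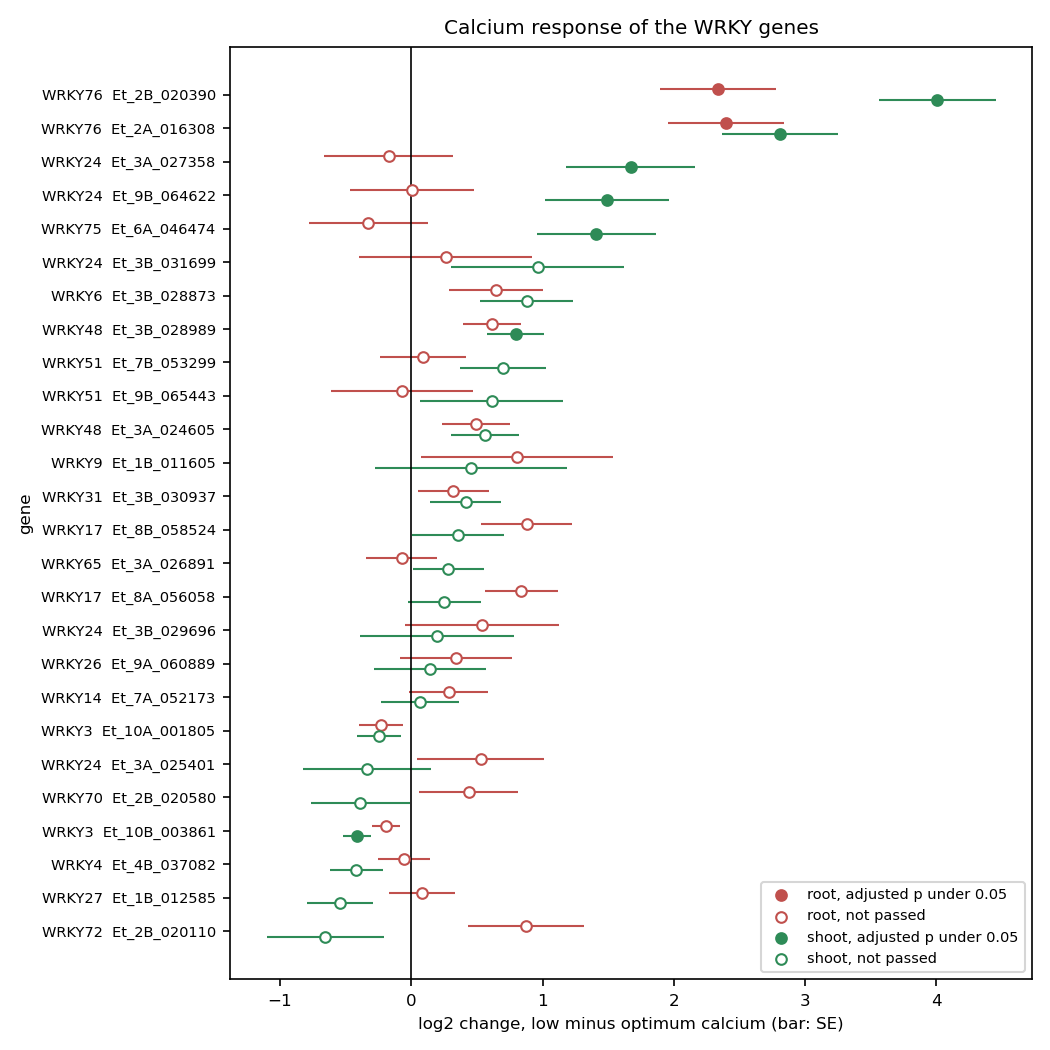
Log2 change, low minus optimum calcium, of each of the 26 WRKY genes in root and in shoot, with its standard error; filled points passed the limma test at an adjusted p under 0.05. The WRKY76 pair lies farthest to the right in both tissues, between 2.34 and 4.01, and the lower call in shoot is WRKY3 Et_10B_003861 at -0.41.

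WRKY76 belongs to subgroup IIa, and in rice it is known as a repressor that lowers resistance to blast fungus and raises cold tolerance. The A copy, Et_2A_016308, had log2 values of 9.90, 9.27, 8.99 and 9.63 in low-calcium root, against 6.53, 6.12, 8.32 and 7.23 in optimum-calcium root. The B copy, Et_2B_020390, had 9.96, 9.14, 9.21 and 9.67 in low-calcium root, against 6.94, 6.69, 7.94 and 7.06 in optimum-calcium root. The groups did not overlap for either copy, and replicate 3 was the highest optimum-calcium root library for both. The log2 changes were 2.40 (SE 0.44, limma adjusted p 0.00918) for the A copy and 2.34 (SE 0.44, limma adjusted p 0.0104) for the B copy. Over the alternatives the adjusted p lay between 0.000999 and 0.0356 for the A copy and between 0.00185 and 0.0425 for the B copy.

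In shoot the B copy of WRKY76 had log2 values of 6.76, 9.06, 7.90 and 8.40 under low calcium, against 4.05, 4.84, 2.96 and 4.24 under optimum calcium. The A copy had 6.98, 8.90, 8.22 and 8.74 under low calcium, against 5.74, 5.63, 5.34 and 4.91 under optimum calcium. Every low-calcium shoot library was above every optimum-calcium one for both copies, with replicate 1 the lowest of the low-calcium libraries. The log2 change was 4.01 (SE 0.44, limma adjusted p 1.0e-05) for the B copy and 2.81 (SE 0.44, limma adjusted p 2.2e-04) for the A copy. The B copy had 998 reads summed over the low-calcium and 71 over the optimum-calcium shoot libraries, and the A copy 1104 and 172 in the same groups. Over the alternatives the adjusted p lay between 5.0e-06 and 0.00351 for the B copy and between 5.2e-05 and 0.00535 for the A copy, with the call kept in each.

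The WRKY24 name was carried by 5 members, of which 2 rose in shoot. Rice WRKY24 is known to repress gibberellin and abscisic acid signalling in the aleurone, the cell layer around the starchy endosperm. Et_3A_027358 had log2 values of 5.34, 7.05, 5.23 and 6.45 in low-calcium shoot, against 4.05, 2.99, 5.21 and 5.14 in optimum-calcium shoot. The groups did not overlap, by a margin of 0.02 at their nearest values, and the log2 change was 1.67 (SE 0.49, limma adjusted p 0.0143). Et_9B_064622 had 6.24, 8.16, 7.17 and 6.92 in low-calcium shoot, against 4.92, 4.63, 6.92 and 6.06 in optimum-calcium shoot. Here the groups overlapped, and the log2 change was 1.49 (SE 0.47, limma adjusted p 0.0203).

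Low-calcium shoot replicate 2 was the highest of its group for both of these WRKY24 genes, and both calls ended without it, with limma adjusted p 0.0543 for Et_3A_027358 and 0.0766 for Et_9B_064622. The call of Et_9B_064622 also ended without optimum-calcium shoot replicate 1 (limma adjusted p 0.0686) or replicate 2 (limma adjusted p 0.0687). With the shoot libraries fitted alone the limma adjusted p was 0.0519 for Et_3A_027358 and 0.0609 for Et_9B_064622, and with voom it was 0.0571 for Et_3A_027358. The B partner of Et_3A_027358, Et_3B_031699, did not pass. It had 5.66, 8.01, 5.92 and 7.28 in low-calcium shoot, against 5.09, 3.69, 6.97 and 7.27 in optimum-calcium shoot, with a log2 change of 0.96 (SE 0.66, limma adjusted p 0.254). In root none of the 5 passed, with log2 changes from -0.17 to 0.54.

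WRKY75 (Et_6A_046474), of subgroup IIc, is known in Arabidopsis for responses to phosphate shortage and for root hair growth. It had log2 values of 5.56, 7.90, 7.02 and 7.36 in low-calcium shoot, against 5.01, 5.68, 4.75 and 6.75 in optimum-calcium shoot. The groups overlapped through low-calcium replicate 1, which lay below optimum-calcium replicates 2 and 4. The log2 change was 1.41 (SE 0.45, limma adjusted p 0.0220). This call ended without low-calcium shoot replicate 2 (limma adjusted p 0.0813) or replicate 4 (0.0668), and without optimum-calcium shoot replicate 1 (0.0683) or replicate 3 (0.0691), and also with the shoot libraries alone (0.0758) and with voom (0.0636). In root WRKY75 had 7.65, 6.79, 6.99 and 7.10 under low calcium, against 7.0, 7.39, 7.64 and 7.80 under optimum calcium, a change of -0.33 that did not pass (SE 0.45, limma adjusted p 0.652).

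WRKY48, also of subgroup IIc, is known in Arabidopsis as a stress-induced factor that lowers basal resistance to bacteria. Its B copy, Et_3B_028989, had log2 values of 7.44, 8.40, 7.90 and 7.62 in low-calcium shoot, against 6.89, 7.12, 6.82 and 7.34 in optimum-calcium shoot, without overlap. The log2 change was 0.80 (SE 0.22, limma adjusted p 0.00996), and the adjusted p stayed between 0.00279 and 0.0375 over the alternatives. The A copy, Et_3A_024605, had 7.71, 8.58, 8.15 and 7.79 in low-calcium shoot, against 7.09, 7.53, 7.39 and 7.98 in optimum-calcium shoot, and did not pass (log2 change 0.56, SE 0.26, limma adjusted p 0.0961). It passed with scaling by the total (limma adjusted p 0.0356) and without optimum-calcium shoot replicate 4 (0.0440), which was the one that overlapped the low-calcium libraries.

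WRKY3, of group I, is known in Arabidopsis for resistance to fungi that kill their host cells. Its B copy, Et_10B_003861, was the lower call. It had log2 values of 7.92, 7.78, 7.76 and 7.70 in low-calcium shoot, against 8.34, 8.14, 8.22 and 8.11 in optimum-calcium shoot. The groups did not overlap and the SD was 0.09 in low-calcium and 0.10 in optimum-calcium shoot. The log2 change was -0.41 (SE 0.11, limma adjusted p 0.00786) on the deposited scale, where the median of all genes was -0.12. With scaling by the total the change was -0.22 and did not pass (limma adjusted p 0.201). The A copy, Et_10A_001805, had 7.47, 7.57, 7.47 and 7.20 in low-calcium shoot, against 7.72, 7.69, 7.28 and 8.01 in optimum-calcium shoot, and did not pass (log2 change -0.25, SE 0.17, limma adjusted p 0.245).

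**Figure D3:**
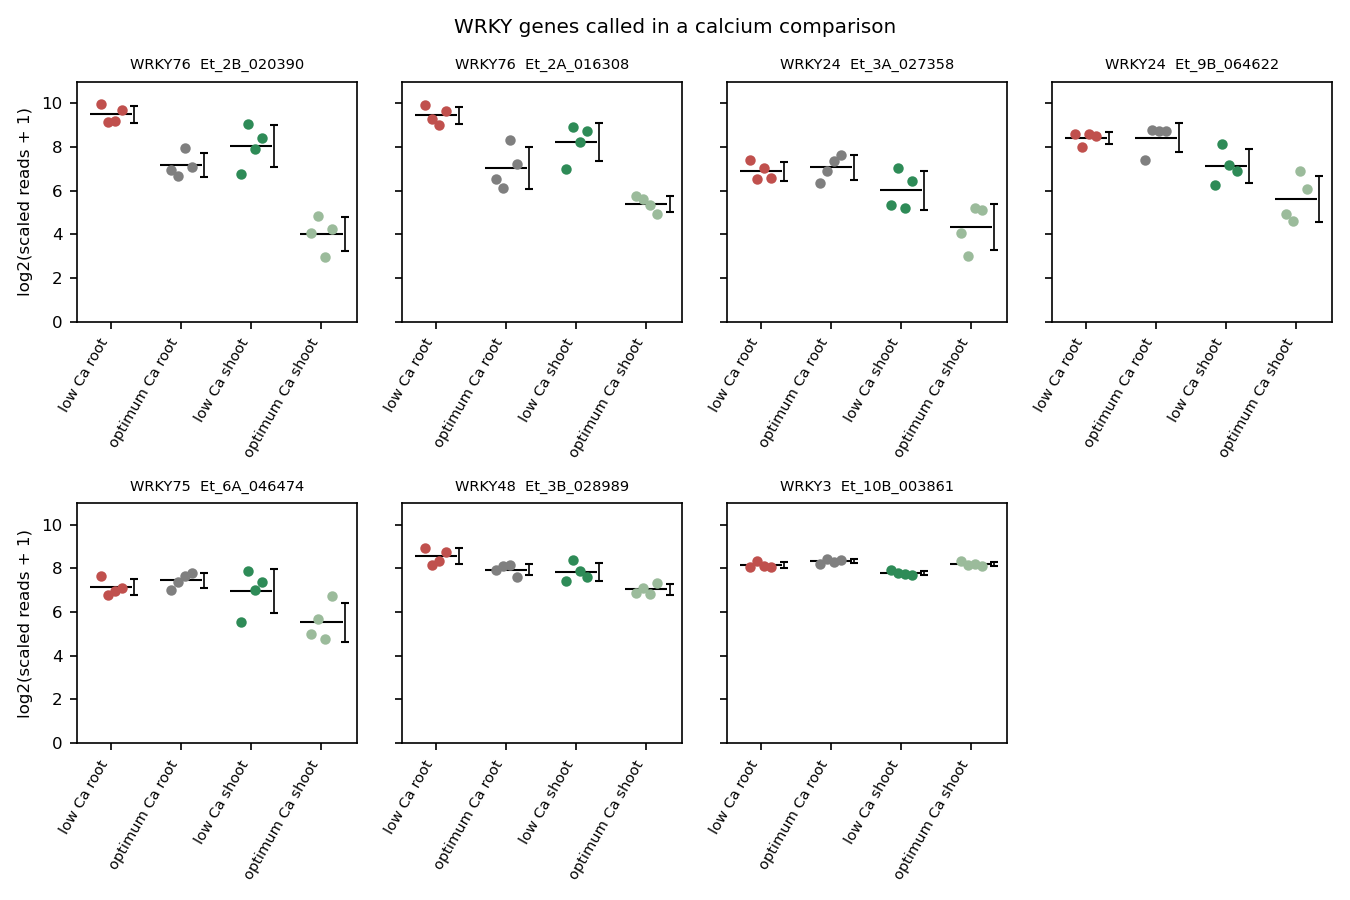
Log2(scaled reads + 1) of the 7 WRKY genes called in a calcium comparison, in each library, with group means (horizontal lines) and SD (bars, n = 4). For both WRKY76 genes the low-calcium points lie above the optimum-calcium points in root and in shoot; for WRKY3 the low-calcium shoot points, 7.70 to 7.92, lie below the optimum-calcium shoot points, 8.11 to 8.34.

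Other members differed in root without overlap but did not pass. All 4 low-calcium root libraries were above all 4 optimum-calcium ones for 5 members (12% of all genes) and below for 0 (9.53% of all genes). Beside the WRKY76 pair these were WRKY17 Et_8A_056058, WRKY48 Et_3B_028989 and WRKY72 Et_2B_020110. WRKY17, of subgroup IId, is known in Arabidopsis as a repressor of basal resistance together with WRKY11, and WRKY72 (subgroup IIb) contributes to basal defence in Arabidopsis and tomato. WRKY17 Et_8A_056058 had 9.44, 9.07, 8.89 and 9.20 in low-calcium root, against 8.45, 8.81, 7.96 and 8.01 in optimum-calcium root, a log2 change of 0.84 (SE 0.28, limma adjusted p 0.0714). Its B copy Et_8B_058524 had 9.24, 8.87, 8.63 and 8.72 in low-calcium root, against 8.02, 8.71, 7.47 and 7.74 in optimum-calcium root, with 0.88 (SE 0.35, limma adjusted p 0.119) and overlapping groups.

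WRKY72 had 6.91, 6.81, 6.62 and 7.03 in low-calcium root, against 5.75, 6.13, 6.40 and 5.60 in optimum-calcium root, with 0.87 (SE 0.44, limma adjusted p 0.206). For WRKY48 Et_3B_028989 the root change was 0.62 (SE 0.22, limma adjusted p 0.0867). The count of 2 called members in root was 6 with the root libraries fitted alone, where 14.3% of all genes passed, and 4 with voom, where 11.1% passed. The fit of root alone added WRKY6, both copies of WRKY17 and WRKY72, and voom added WRKY17 Et_8A_056058 and WRKY72, all higher. Without optimum-calcium shoot replicate 3, a library that enters the root test through the shared spread, WRKY17 Et_8A_056058 passed with a limma adjusted p of 0.0373.

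The 3 members with the most reads did not pass in either tissue. WRKY26 (Et_9A_060889), a group I factor tied to heat tolerance in Arabidopsis, had 38712 reads over the 16 libraries. Its log2 values were 11.36, 11.05, 11.05 and 11.11 in low-calcium root, against 10.59, 10.67, 11.06 and 10.90 in optimum-calcium root (change 0.34, SE 0.43, limma adjusted p 0.622). In shoot they were 10.58, 11.99, 11.16 and 11.40 under low calcium, against 10.12, 10.14, 12.44 and 11.87 under optimum calcium (change 0.14, SE 0.43, limma adjusted p 0.810). The optimum-calcium shoot libraries thus spanned 2.32 log2 units, with replicates 3 and 4 high and replicates 1 and 2 low.

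WRKY6 (Et_3B_028873), of subgroup IIb, is known in Arabidopsis for leaf senescence and for control of phosphate transport. It had 9.81, 9.62, 9.37 and 9.73 in low-calcium root, against 8.83, 8.94, 9.38 and 8.82 in optimum-calcium root (change 0.64, SE 0.36, limma adjusted p 0.241). In shoot it had 7.38, 9.36, 8.32 and 8.44 under low calcium, against 6.86, 6.97, 8.39 and 7.77 under optimum calcium (change 0.88, SE 0.36, limma adjusted p 0.0604). The groups overlapped in both tissues. The shoot change passed without low-calcium shoot replicate 1 (limma adjusted p 0.0106), without optimum-calcium shoot replicate 3 (0.0176), with median-ratio size factors (0.0466) and with scaling by the total (0.0234).

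WRKY70 (Et_2B_020580), of group III, is known in Arabidopsis for setting the balance between salicylate and jasmonate responses. It had 8.47, 8.37, 8.05 and 8.20 in low-calcium root, against 7.41, 7.15, 8.98 and 7.82 in optimum-calcium root (change 0.44, SE 0.38, limma adjusted p 0.450). In shoot it had 8.57, 9.92, 8.94 and 8.86 under low calcium, against 9.11, 8.89, 10.35 and 9.50 under optimum calcium (change -0.39, SE 0.38, limma adjusted p 0.424). The groups overlapped in both tissues.

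WRKY27 (Et_1B_012585), of subgroup IIe and tied to bacterial wilt symptoms in Arabidopsis, was the other member that lay lower under low calcium in shoot without overlap. All 4 low-calcium shoot libraries were below all 4 optimum-calcium ones for 2 of 26 members (17.0% of all genes) and above for 4 (14.1% of all genes). Its log2 values were 5.45, 5.69, 5.56 and 5.57 in low-calcium shoot, against 5.79, 6.19, 6.58 and 5.88 in optimum-calcium shoot (change -0.55, SE 0.25, limma adjusted p 0.0957), which did not pass. Rice-numbered WRKY51 (Et_7B_053299), a repressor of gibberellin signalling in rice aleurone, changed by 0.70 in shoot (SE 0.33, limma adjusted p 0.0998). It passed with scaling by the total (limma adjusted p 0.0398), without low-calcium shoot replicate 1 (0.0289) and without optimum-calcium shoot replicate 3 (0.0250). Over the 24 members that did not pass in root the log2 change lay between -0.33 and 0.88, and over the 19 in shoot between -0.66 and 0.96.

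The response to calcium was not shown to differ between root and shoot for any member. The limma test of the difference called 0 of 26 members, where 7.4% of all genes passed, 5 members had an unadjusted p under 0.05 (22.6% of all genes), and voom also called 0, with 3.37% of all genes. The largest differences, root response minus shoot response, were -1.84 for WRKY24 Et_3A_027358 (SE 0.69, limma adjusted p 0.116), -1.74 for WRKY75 (SE 0.64, limma adjusted p 0.110) and -1.67 for WRKY76 Et_2B_020390 (SE 0.63, limma adjusted p 0.118). Each of these was larger in shoot. WRKY72 had the largest difference in the other direction, 1.53 (SE 0.63, limma adjusted p 0.155). Single libraries decided this count: without low-calcium shoot replicate 1 it was 2 (6.49% of all genes), WRKY76 Et_2B_020390 at -2.09 (limma adjusted p 0.0335) and WRKY75 at -2.20 (limma adjusted p 0.0223), and without optimum-calcium shoot replicate 4 it was 1 (10.7% of all genes), WRKY75 at -2.14 (limma adjusted p 0.0291).

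WRKY levels differed widely between shoot libraries of the same group, and many members were high or low in the same library. Averaged over the 26 members, low-calcium shoot replicate 2 stood 0.72 log2 units above its group mean with 23 of 26 members above, and replicate 1 stood at -0.67 with 4 of 26 above. Of the other genes 48.9% were above in replicate 2 and 56.4% in replicate 1. In replicates 1 to 4 of low-calcium root the members above numbered 22, 4, 8 and 13 of 26. Of the other genes 47.2%, 50.6%, 52.1% and 54.0% were above there. In optimum-calcium shoot the mean deviations of replicates 1 to 4 were -0.38, -0.28, 0.31 and 0.35. In root they lay between -0.23 and 0.28 under low calcium and between -0.24 and 0.15 under optimum calcium. The same mean over all other genes lay between -0.04 and 0.05 in the 16 libraries. Scaling of each library keeps a mean over so many genes small, and likewise keeps the shares above near even. These values therefore do not show what other sets of 26 genes would give, and no such sets were compared. The median SD of a member was 0.68 in low-calcium and 0.61 in optimum-calcium shoot, against 0.33 and 0.28 for the other genes in these groups. In root it was 0.27 under low and 0.38 under optimum calcium, against 0.22 and 0.27 for the other genes. MAP kinase 5 (Et_4A_035020), which is no member and is known in rice as a defence kinase, had 8.83, 10.83, 9.11 and 9.75 in low-calcium shoot and 8.89, 8.64, 11.59 and 10.24 in optimum-calcium shoot, high in replicate 2 of the low-calcium group and in replicates 3 and 4 of the optimum-calcium group. MAP kinase 5 was chosen after its values were seen, and how many other genes follow this pattern was not counted. The part of these library differences in the calcium results was not tested beyond leaving out each library.

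**Figure D4:**
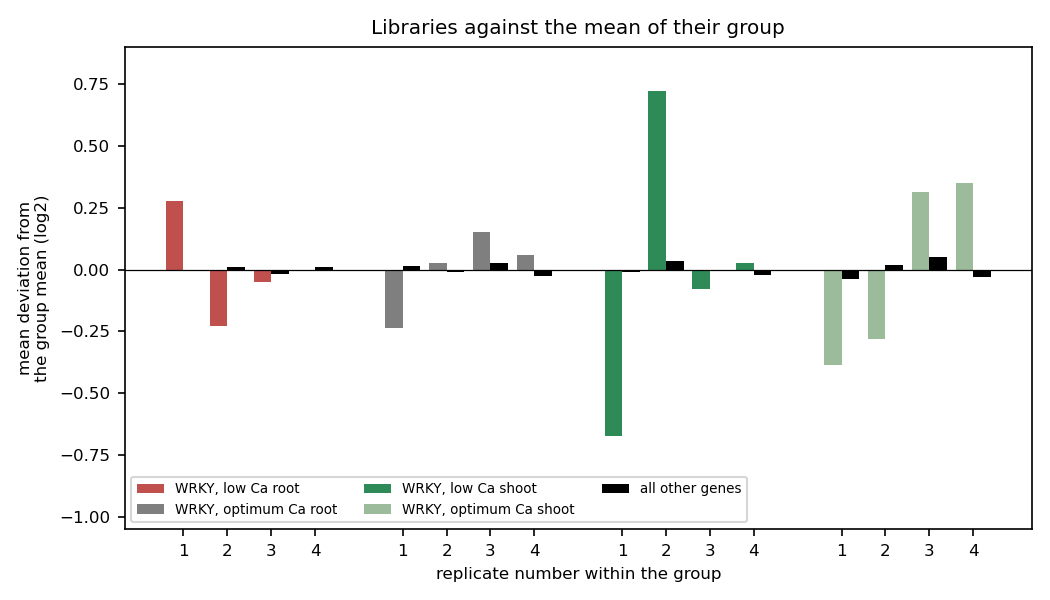
Mean deviation of the 26 WRKY genes (coloured) and of all other genes (black) from the mean of their group, in log2 units, for each of the 16 libraries. Low-calcium shoot replicates 1 and 2 stand at -0.67 and 0.72. The other genes stay between -0.04 and 0.05, a mean that scaling keeps small, so it is no measure of other sets of 26 genes.

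Taken as a share of gene reads, the 26 members made up 0.517% ± 0.0611 in low-calcium root, 0.376% ± 0.0378 in optimum-calcium root, 0.321% ± 0.129 in low-calcium shoot and 0.242% ± 0.111 in optimum-calcium shoot (SD, n = 4). In root the low-calcium libraries had 0.598%, 0.455%, 0.489% and 0.527%, against 0.322%, 0.389%, 0.410% and 0.384% in optimum calcium, without overlap. In shoot the low-calcium libraries had 0.193%, 0.485%, 0.249% and 0.358%, against 0.142%, 0.151%, 0.354% and 0.319% in optimum calcium, with overlap. Without the 100 genes with the most reads, WRKY26 among them, the means were 0.487%, 0.346%, 0.278% and 0.184% in the order of groups given first. No test was made of this sum. It includes the called WRKY76 pair, whose A and B copies had 2418 and 2505 reads in low-calcium root. In optimum-calcium root, where depth was higher, they had 892 and 865. The share without this pair was not computed, so the sum does not show a rise across the family.

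Root carried more WRKY reads than shoot for most members. Under low calcium 16 of 26 members passed between root and shoot, against a background of 56.9% of all genes, 14 of them higher in root (28.4% of all genes) and 2 lower (28.4% of all genes). Under optimum calcium 19 passed, against a background of 66.6%, 16 of them higher in root (32.9% of all genes) and 3 lower (33.7% of all genes). The median root minus shoot difference of the members was 0.79 under low and 0.87 under optimum calcium, against 0.01 and -0.04 for all genes. With scaling by the total the medians were 1.04 and 1.32 for members and 0.27 and 0.41 for all genes. The share of all genes called at both calcium levels was not counted, so the next counts have no background and are description only. At both calcium levels 12 members were higher in root, 2 were lower, and 5 passed in neither (WRKY26, WRKY4, WRKY48 Et_3A_024605 and WRKY24 Et_3B_029696 and Et_3B_031699). Of these WRKY4 was higher in root with scaling by the total, under low (limma adjusted p 0.00820) and optimum calcium (0.0312), and without low-calcium shoot replicate 2 under low calcium (0.0331). WRKY48 Et_3A_024605 was higher in root under optimum calcium with scaling by the total (limma adjusted p 0.0183). Scaling by the total called 16 members higher and 2 lower in root under low calcium, where 38.4% of all genes were higher and 22.3% lower, and 20 higher and 3 lower under optimum calcium, where 47.9% were higher and 23.1% lower.

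**Figure D5:**
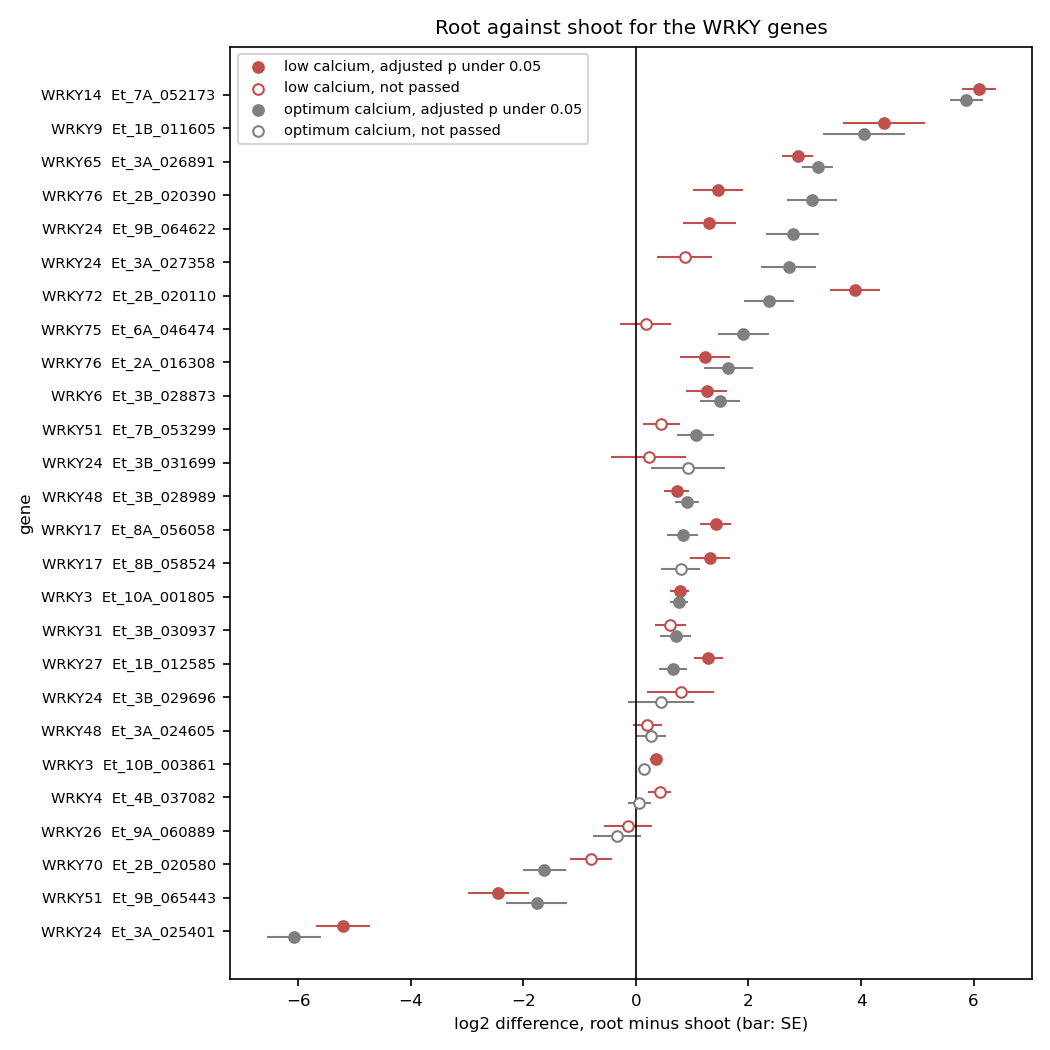
Root minus shoot difference (log2) of each of the 26 WRKY genes under low and under optimum calcium, with its standard error; filled points passed the limma test at an adjusted p under 0.05. WRKY14 lies highest, at 6.09 and 5.87, and WRKY24 Et_3A_025401 lowest, at -5.20 and -6.07.

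WRKY14 (Et_7A_052173), of subgroup IIe, was close to absent from shoot reads. It had log2 values of 7.67, 7.60, 7.41 and 7.44 in low-calcium root, against 1.68, 1.22, 1.78 and 1.08 in low-calcium shoot. Under optimum calcium it had 7.62, 7.47, 7.08 and 6.81 in root, against 1.97, 0.99, 1.09 and 1.44 in shoot. The differences were 6.09 (SE 0.30, limma adjusted p 5.5e-11) and 5.87 (SE 0.30, limma adjusted p 6.2e-11). Summed reads were 645 in root and 6 in shoot under low calcium, a root to shoot ratio of 123 after scaling to gene reads (Clopper-Pearson 95% limits 56.4 and 338, which cover counting error alone). Under optimum calcium they were 912 in root and 7 in shoot, a ratio of 125 (limits 60.5 and 312). The low-calcium shoot library whose title names both tissues had 1.08, which is 1 read. Low-calcium shoot replicate 2, at 1.22, also had 1 read, so these values differ by scaling only.

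WRKY9 (Et_1B_011605) and WRKY72, both of subgroup IIb, and WRKY65 (Et_3A_026891), of subgroup IIe, followed. Arabidopsis WRKY9 is known to promote suberin in roots. WRKY9 had 7.45, 6.95, 7.01 and 7.10 in low-calcium root, against 0.00, 4.56, 3.85 and 2.44 in low-calcium shoot, and 6.69, 7.01, 5.20 and 6.37 in optimum-calcium root, against 1.97, 1.99, 1.70 and 3.38 in optimum-calcium shoot. The differences were 4.41 (SE 0.73, limma adjusted p 6.8e-05) under low and 4.06 (SE 0.73, limma adjusted p 1.2e-04) under optimum calcium, and the low-calcium shoot libraries ranged from no read to 4.56. WRKY72 had 1.68, 3.84, 2.82 and 3.46 in low-calcium shoot and 2.55, 4.23, 3.33 and 4.31 in optimum-calcium shoot, below all root libraries given above. Its differences were 3.89 (SE 0.44, limma adjusted p 1.1e-06) under low and 2.36 (SE 0.44, limma adjusted p 1.8e-04) under optimum calcium.

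WRKY65 had 8.78, 8.06, 8.14 and 8.45 in low-calcium root, against 4.71, 5.99, 5.44 and 5.79 in low-calcium shoot, and 8.49, 8.36, 8.47 and 8.41 in optimum-calcium root, against 4.96, 4.79, 5.12 and 5.93 in optimum-calcium shoot. The differences were 2.87 (SE 0.27, limma adjusted p 1.2e-07) and 3.23 (SE 0.27, limma adjusted p 2.2e-08). The WRKY76 B copy differed by 1.46 (SE 0.44, limma adjusted p 0.00997) under low and 3.13 (SE 0.44, limma adjusted p 9.6e-06) under optimum calcium. WRKY24 Et_9B_064622 had 8.59, 8.01, 8.58 and 8.51 in low-calcium root and 7.42, 8.80, 8.72 and 8.74 in optimum-calcium root, and was 2.79 higher in root under optimum calcium (SE 0.47, limma adjusted p 6.0e-05). Its difference of 1.30 under low calcium (SE 0.47, limma adjusted p 0.0264) did not hold without any 1 of 5 libraries, namely low-calcium root replicates 1, 3 and 4 and low-calcium shoot replicates 1 and 4, with limma adjusted p from 0.0540 to 0.0936. Likewise the low-calcium difference of the WRKY76 A copy, 1.23 (SE 0.44, limma adjusted p 0.0251), did not hold without low-calcium root replicate 1 or 4 or low-calcium shoot replicate 1, with limma adjusted p from 0.0578 to 0.101.

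Of the remaining calls that were higher in root, WRKY6, the A copies of WRKY17 and WRKY3, the B copy of WRKY48 and WRKY27 passed at both calcium levels, WRKY17 Et_8B_058524 and WRKY3 Et_10B_003861 passed under low calcium, and WRKY24 Et_3A_027358, WRKY75, WRKY31 and WRKY51 Et_7B_053299 passed under optimum calcium. Among these the optimum-calcium calls of WRKY17 Et_8A_056058, WRKY27 and WRKY31 (Et_3B_030937) were lost when single libraries were left out. For WRKY17 Et_8A_056058 these were optimum-calcium root replicate 2 and shoot replicate 1 (limma adjusted p 0.0569 and 0.0592). For WRKY27 they were optimum-calcium root replicates 1 and 2 and shoot replicates 1 and 4 (0.0672 to 0.113), and its call also ended with the optimum-calcium libraries fitted alone (0.0528). For WRKY31 the libraries were optimum-calcium root replicates 3 and 4 and shoot replicates 1 and 2 (0.0575 to 0.0896). Other calls were gained. Under optimum calcium WRKY17 Et_8B_058524 passed with voom, with both other scalings and without any 1 of 3 libraries (limma adjusted p, or that of voom, from 0.00269 to 0.0448), and WRKY3 Et_10B_003861 with scaling by the total (5.2e-04). Under low calcium WRKY31 passed with scaling by the total (limma adjusted p 0.00773), and without low-calcium shoot replicate 2 WRKY31 (4.1e-04), WRKY24 Et_3A_027358 (0.0484) and WRKY51 Et_7B_053299 (0.0356) passed. A pass at 1 calcium level and not at the other does not show a difference between levels, and the test of that difference is the one that called 0 members.

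The members lower in root were WRKY24 Et_3A_025401, WRKY51 Et_9B_065443 and, under optimum calcium, WRKY70. Et_3A_025401 had log2 values of 0.00, 0.00, 1.90 and 1.08 in low-calcium root, against 6.32, 5.92, 6.28 and 5.28 in low-calcium shoot, and 0.00, 0.00, 0.00 and 0.86 in optimum-calcium root, against 6.39, 6.80, 5.73 and 6.23 in optimum-calcium shoot. It had 4 and 1 reads in root under low and optimum calcium, against 214 and 330 in shoot, so shoot levels after the same scaling were 46.6 times those of root under low calcium (Clopper-Pearson 95% limits 17.9 and 173) and 343 times under optimum calcium (limits 61.2 and 13601). The other 4 WRKY24 genes had at least 416 reads in low-calcium root and at least 604 in optimum-calcium root. The fitted differences were -5.20 (SE 0.48, limma adjusted p 9.7e-08) and -6.07 (SE 0.48, limma adjusted p 1.1e-08).

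WRKY51 Et_9B_065443, whose Arabidopsis namesake (subgroup IIc) takes part in repressing jasmonate responses, had 6.56, 5.14, 6.14 and 5.61 in low-calcium root, against 7.36, 9.23, 8.08 and 8.55 in low-calcium shoot. Under optimum calcium it had 5.08, 5.44, 7.12 and 6.09 in root, against 6.52, 7.13, 8.08 and 9.05 in shoot, with overlap. The differences were -2.44 (SE 0.54, limma adjusted p 0.00106) and -1.76 (SE 0.54, limma adjusted p 0.00896). WRKY70 differed by -1.63 (SE 0.38, limma adjusted p 0.00113) under optimum calcium and by -0.80 (SE 0.38, limma adjusted p 0.0815) under low calcium, which passed with the low-calcium libraries fitted alone (0.0219) and without optimum-calcium root replicate 3 (0.0338).

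The balance between A and B copies was compared in the 5 pairs as the log2 ratio of A to B, low against optimum calcium, in 10 exact permutation tests (two-sided). With 4 libraries in each group such a test cannot go below 0.0286, and none passed correction over the 10. After this correction a comparison can pass only where several reach that floor together. The lack of a pass therefore does not show that the balance stayed the same. The WRKY76 pair in shoot reached the smallest p: the A to B ratio was 0.18 ± 0.23 under low calcium, from -0.15 to 0.34, and 1.38 ± 0.81 under optimum calcium, from 0.67 to 2.38 (SD, n = 4), without overlap, with an exact p of 0.0286 and an adjusted p of 0.286. In root the WRKY76 ratio was -0.05 ± 0.14 under low and -0.11 ± 0.45 under optimum calcium (SD, n = 4). In shoot the WRKY24 ratio was -0.70 ± 0.28 under low and -1.41 ± 0.65 under optimum calcium (SD, n = 4), with the B copy higher in both, and the exact p was 0.114. WRKY48 in shoot, at 0.22 ± 0.05 under low and 0.46 ± 0.20 under optimum calcium, and the WRKY24 pair in root, at -0.05 ± 0.24 and 0.38 ± 0.40 in the same order (SD, n = 4), each had an exact p of 0.0857. The adjusted p was 0.286 for each of these 4 comparisons, and the exact p of the other 6 lay between 0.314 and 0.857.

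Genes that act with WRKY factors were counted by lists drawn from the descriptions. An unadjusted limma p under 0.05 was found in 28.3% of all genes in root and 49.1% in shoot, and in 5 and 11 of the 26 WRKY members. VQ motif-containing protein 4 (Et_3B_031288), the 1 VQ partner protein listed, rose in root, with 9.43, 9.20, 8.83 and 9.24 under low calcium, against 8.67, 8.59, 8.47 and 8.23 under optimum calcium (log2 change 0.69, SE 0.19, limma adjusted p 0.0390). This call was lost with the replicate block and without any 1 of 6 of the 8 root libraries, the exceptions being replicate 3 of each group. In shoot it did not pass (0.12, limma adjusted p 0.625).

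The last kinases of the MAP kinase cascade can phosphorylate WRKY factors, and the list also holds kinases upstream of them. Of 16 MAP kinase cascade genes 0 passed in root by limma and by voom (5 with an unadjusted limma p under 0.05, median -0.12), against 8.33% of all genes called. In shoot 2 rose and 7 fell (median -0.28), where 18.5% of all genes rose and 20.9% fell. In root the 2 with the most reads were MAP kinase kinase kinase 3 (Et_6B_049580, -0.48, limma adjusted p 0.155) and MAP kinase 5 (-0.08, limma adjusted p 0.931). The shoot falls included both copies of MAP kinase 12 (-0.51 for Et_2B_021427 and -0.76 for Et_2A_017442) and MAP kinase 10 Et_9A_062272 (-1.04), and the rises were MAP kinase kinase kinase 18 (Et_3B_029139, 1.77) and NPK1 (Et_8A_057808, 1.98). With scaling by the total 2 rose and 4 fell in shoot, where 21.9% of all genes rose and 8.17% fell. Of 9 pattern recognition receptors and kinases, which start the signal upstream, SERK2 Et_7B_053945 rose in root (0.62, SE 0.18, limma adjusted p 0.0483), where 5.32% of all genes rose. In shoot 0 passed by limma and by voom (1 with an unadjusted limma p under 0.05), against 39.4% of all genes called by limma. The SERK2 call was lost with scaling by the total, a pseudocount of 0.1, the replicate block, and without any 1 of the 8 root libraries or of the 4 optimum-calcium shoot libraries.

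Of 17 salicylic acid signalling genes 0 passed in root by limma and by voom (0 with an unadjusted limma p under 0.05, median -0.07), against 8.33% of all genes called. In shoot 2 rose and 4 fell (median -0.41), where 18.5% of all genes rose and 20.9% fell. The falls were CALMODULIN-BINDING PROTEIN 60 genes, a family whose members control salicylate synthesis in Arabidopsis, among them Et_1B_010395 (-0.65), Et_1B_012257 (-0.58) and Et_7B_053843 (-0.62), and with scaling by the total 1 of the list fell, where 8.17% of all genes fell. The rises were NPR1 Et_3B_030902 (0.96, limma adjusted p 0.0460), a salicylate receptor in Arabidopsis, and NPR5 Et_3A_027120 (3.07, limma adjusted p 2.8e-05), whose relatives are known for leaf and flower development rather than for salicylate. Of 8 jasmonate genes 1 rose in root, where 5.32% of all genes rose, and 2 rose in shoot, where 18.5% did (medians 0.79 and 0.42). Linoleate 9S-lipoxygenase 3 (Et_4B_037678), of a branch of lipid oxidation outside jasmonate synthesis, rose by 1.33 in root and 1.06 in shoot, and lipoxygenase 6 (Et_4A_034488) by 0.46 in shoot. The root call was lost without any 1 of 6 of the 8 root libraries, again except replicate 3 of each group. In shoot 0 of the list passed without low-calcium replicate 2 or optimum-calcium replicate 1, and 1 without low-calcium replicate 4 or optimum-calcium replicate 3.

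Of 26 pathogenesis-related and defence proteins, a class with known WRKY targets, 6 rose and 0 fell in root (median 0.96), where 5.32% of all genes rose and 3.0% fell. In shoot 11 rose and 1 fell (median 0.60), where 18.5% of all genes rose and 20.9% fell. In root these included chitinase 2 (Et_6A_048122, 1.15), pathogenesis-related protein 1 (Et_4A_035097, 2.28) and glucan endo-1,3-beta-glucosidase A6 (Et_2A_015933, 1.20). In shoot they included glucan endo-1,3-beta-glucosidase 3 (Et_5A_042282, 2.91), pathogenesis-related protein 1 (Et_5B_044132, 2.29) and chitinase 8 (Et_1B_011667, 1.77). Another glucan endo-1,3-beta-glucosidase 3 gene, Et_5A_042288, rose by 1.77 in root and was the one that fell, by 1.00, in shoot. The list takes every chitinase and glucan endo-1,3-beta-glucosidase by name, and whether each acts in defence was not tested. The root count rested on single libraries: it was 1 without low-calcium root replicate 1, 2 or 4 or optimum-calcium root replicate 2, 2 without optimum-calcium root replicate 1 or 4, and 10 without optimum-calcium root replicate 3, fits in which the share of all genes called moved as given for the members. Of 3 diterpenoid phytoalexin genes, made against fungi in rice, 0 passed in root by limma and 1 by voom (1 with an unadjusted limma p under 0.05), against 8.33% and 11.1% of all genes. The ent-cassadiene C2-hydroxylase Et_1B_010945 rose in shoot (2.91, SE 0.65, limma adjusted p 0.00304), where 18.5% of all genes rose.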

How the data were processed

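Per the file headers and values, the authors deposited log2 values per gene, equal to log2 of scaled reads plus 1. Undoing the logarithm gave whole multiples of the worth of 1 read, within 0.1 of a read, for 100% of 93184 values, so whole reads were recovered. Identity to the best hit is a deposited percent. Columns were matched to library titles by tissue letter and number; the letter H of the optimum-calcium columns is unexplained. Aligner, genome build and counting method: not given in the sources used here. Left out were 5634 IDs without values and 16 columns of per-sample small RNA read lengths.

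Limma 3.58.1 with an intensity trend (R 4.3.3) was fitted to all 5824 genes and 16 libraries, with 1 coefficient per group and Benjamini-Hochberg adjustment over all genes. Copy balance used exact permutation tests. No block was used, because the labels give no pairing. The check of same-numbered samples, given below, was mixed. Alternatives were voom, a filter of 50 CPM in 4 libraries, scaling by the total or by median-ratio size factors, a pseudocount of 0.1, a replicate block, compared libraries alone and leaving out each library. The precision of low genes is limited by depth, and intervals cover counting error only. The members and the lists were chosen with earlier results of these data known. Named were members called in a calcium contrast with their other copy, the 3 with the most reads, the 5 called highest in root and in shoot, and up to 3 called genes of each list by mean reads; other members named differed without overlap or changed call under an alternative, and these, with MAP kinase 5 in shoot and glucosidase Et_5A_042288, were chosen after their values were seen. Python 3.11.15 was used for tables and figures.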

Additional observations from a re-analysis of the deposited data

Results flagged for a closer look

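In 6 of 104 groups of 4 libraries 1 library lay far from the other 3, by Dixon's criterion for a gap relative to the range. Chance alone gives about 1 in 20 groups. WRKY24 Et_9B_064622 had 2 of these, at 8.01 in low-calcium root replicate 2, below the others at 8.51 to 8.59, and at 7.42 in optimum-calcium root replicate 1, below the others at 8.72 to 8.80. Optimum-calcium root replicate 1 was also low for WRKY51 Et_7B_053299, at 7.36 against 7.80 to 7.84 in the others. WRKY24 Et_3B_031699 stood at 7.68 in low-calcium root replicate 1, above the others at 6.60 to 6.78. WRKY9 stood at 3.38 in optimum-calcium shoot replicate 4, above the others at 1.70 to 1.99. WRKY24 Et_3A_025401 stood at 0.86 in optimum-calcium root replicate 4, which is 1 read, while the others had none. All values are log2 of scaled reads plus 1.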

How the results depend on the processing

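The root count of 2 called members became 4 with voom and 6 in a fit of root only, with 645 and 831 of all genes called in place of 485; the shoot count of 7 became 4 in a fit of shoot only, with 1747 of all genes in place of 2292. Leaving out each library gave 2 to 3 in root, 4 to 9 in shoot, 14 to 20 between tissues under low calcium, 16 to 20 under optimum calcium and 0 to 2 for the difference of responses. Of all genes these fits called 66 to 816 in root, 1576 to 2547 in shoot and 261 to 704 for the difference. Between tissues they called 3027 to 3406 under low and 3663 to 3906 under optimum calcium. Same-numbered samples had correlations from -0.405 to 0.302 and matched their own number best in 6 of 16 cases. With the replicate block the member counts stayed at 2 (root), 7 (shoot), 0 (difference), 16 and 19 (tissues, low and optimum calcium). The all-gene counts with this block were 363, 2219, 426, 3256 and 3828 in that order. Of the 44 calls on single members 9 were lost under at least 1 alternative, in 33 settings in all. The tissue difference of WRKY4 under optimum calcium, 0.06 and not called, turned negative without optimum-calcium root replicate 4, shoot replicate 1 or shoot replicate 4, and lay between -0.057 and 0.22 as each library was left out. The 50 CPM filter kept 4800 genes and removed 1 member. No copy balance passed under any alternative, and these alternatives were added after seeing the data. This is no sign of a stable balance, since a pass needs several comparisons at the smallest possible p.

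The all-gene counts given above hold for the lists in the same fits. Scaling by the total called 444 of all genes in root and 1754 in shoot, and a pseudocount of 0.1 called 450 in root. List counts moved as follows. With compared libraries alone, called genes in root were 1 for MAP kinases, 1 for salicylic acid and 11 for defence proteins, and 0 in shoot for jasmonate. With voom, root had 1 for diterpenoids and 2 for jasmonate. The replicate block gave 0 for the VQ protein and 0 for pattern recognition in root, as did scaling by the total and a pseudocount of 0.1 for pattern recognition (0 and 0). Scaling by the total gave 3 for salicylic acid in shoot. Leaving out each library gave in root 0 to 1 (VQ, MAP kinases, jasmonate, pattern recognition), 0 to 2 (salicylic acid), 1 to 10 (defence) and 0 to 0 (diterpenoids), and in shoot 8 to 10 (MAP kinases), 4 to 6 (salicylic acid), 9 to 13 (defence), 0 to 1 (pattern recognition), 0 to 2 (jasmonate) and 1 to 1 (diterpenoids).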
